A study of Mus musculus with 6 samples.

Results

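Synaptic scaffold, synaptic adhesion and neurotransmitter receptor genes were followed by methyl-CpG binding domain sequencing (MBD-seq) in mouse heart ventricle at postnatal days 14 and 1. The genes were taken by symbol: the Shank, Dlgap, neurexin (Nrxn) and neuroligin (Nlgn) genes, the AMPA, delta, kainate and NMDA type glutamate receptors (Gria, Grid, Grik, Grin), the metabotropic glutamate receptors (Grm) and the GABA-A receptor subunits (Gabr). Of the deposited regions, 566 captured peaks carried the name of such a gene, out of 101254 peaks and 213957 distinct regions in all, and they belonged to 50 genes in 10 families. The symbol rule also takes Grid2ip, a scaffold protein of delta receptor synapses, and Dlgap5, a Dlgap relative known as a mitotic spindle protein.

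The P14 group (14 days old) and the P1 group (1 day old) held 3 libraries each, all from male C57BL/6 mice with no other treatment. The labels give the tissue as left ventricle, whereas their protocol speaks of ventricles with the septum kept and the atria removed. Methylated DNA fragments were pulled from sonicated genomic DNA and sequenced, so a region's read count grows with its methylated CpG content, its length and the efficiency of the capture. Whether a library came from 1 animal or from a pool is not stated, and the p-values measure the spread between these libraries. In bulk ventricle DNA, a methylation change within a cell type and a change in the mix of cell types cannot be told apart.

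At an excitatory synapse, glutamate released from the presynaptic side opens AMPA, kainate and NMDA receptor channels and activates metabotropic receptors, while neurexins on the presynaptic membrane bind neuroligins across the cleft. Dlgap and Shank proteins tie these receptors to the cytoskeleton in the postsynaptic density, and GABA-A receptors are the chloride channels of inhibitory synapses. In the heart, neurons are few and sit in the intrinsic ganglia and the autonomic fibres, and these genes are best known from brain.

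RefSeq promoter windows (250 bases before to 50 after a transcript start, build GRCm38.p6) were at hand for 32 of the 50 genes, 43 windows in all. Only 1 of the 43 windows, an internal start of Nrxn3, overlapped a peak, a share of 2.33% against 7.58% of 32851 windows of all genes. The 43 windows were rich in CG: the median was 9 CG in the 250 bases before the start, against 6 over all genes, and 100% of them held at least 1 CG, against 92.1%. Searching the letters CG covers both strands, since CG reads the same on each. Below are the bases before the start, on the plus strand with CG in capitals, for Nrxn3 as the window that met a peak, for Shank3 as the gene with the largest rise of a peak, and for Dlgap1 as the gene with the most peaks that fell.
Nrxn3, chr12:88794254-88794503: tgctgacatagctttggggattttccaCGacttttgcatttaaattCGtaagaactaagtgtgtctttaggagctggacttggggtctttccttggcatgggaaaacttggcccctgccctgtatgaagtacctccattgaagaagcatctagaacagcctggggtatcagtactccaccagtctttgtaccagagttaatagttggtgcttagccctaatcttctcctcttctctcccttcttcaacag
Shank3, chr15:89499358-89499607: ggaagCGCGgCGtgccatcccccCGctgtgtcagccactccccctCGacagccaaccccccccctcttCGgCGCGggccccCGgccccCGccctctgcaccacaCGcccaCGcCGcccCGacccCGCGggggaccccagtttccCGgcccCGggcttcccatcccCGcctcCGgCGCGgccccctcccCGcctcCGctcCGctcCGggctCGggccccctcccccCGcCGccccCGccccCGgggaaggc
Dlgap1, chr17:69968823-69969072: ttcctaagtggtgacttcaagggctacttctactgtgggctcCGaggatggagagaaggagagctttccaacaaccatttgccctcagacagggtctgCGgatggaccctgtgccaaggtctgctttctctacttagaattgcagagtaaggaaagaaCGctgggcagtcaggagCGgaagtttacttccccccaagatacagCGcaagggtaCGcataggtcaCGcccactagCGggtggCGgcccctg
The Shank3 and Nrxn3 starts lie inside their gene spans and the Dlgap1 start at the beginning of its span. The Nrxn3 stretch holds 2 CG, the Dlgap1 stretch 9 and the Shank3 stretch 31. The peak that met the Nrxn3 window, chr12:88794482-88796034, covers the last 22 of the printed bases. It had 172, 53 and 61 reads in the P14 libraries and 32, 31 and 39 in the P1 libraries, and its log2 change of 0.31 did not pass the test. The peak nearest to the Shank3 window lay 3.11 kb from it, and the one nearest to the Dlgap1 window 88.8 kb.

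The libraries held 16284216 to 21512072 reads in the table. The share of reads in peaks was 31.31%, 18.39% and 16.99% in the P14 libraries and 11.58%, 13.39% and 12.59% in the P1 libraries, averaging 22.2% ± 7.89 and 12.5% ± 0.907 (SD, n = 3 each, exact permutation test, two-sided, p = 0.1, the smallest this design allows). P14 replicate 1 stood apart, with 10.236 times the read density in peaks as between them. P1 replicate 1 had no read in 2392 of all peaks, far more than any other library. The comparison was therefore made within peaks, on counts scaled by TMM (trimmed mean of M values) to the reads in all peaks: it asks whether a peak gained or lost reads relative to other peaks, not in absolute amount. A peak is called, and said to rise or fall, where edgeR's quasi-likelihood test gave an adjusted p (Benjamini-Hochberg, over all peaks that passed a filter on low counts) below 0.05. That filter kept 534 of the 566 peaks. CPM below are TMM-scaled reads relative to a fixed total of reads in peaks, and all log2 changes are P14 over P1.

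Among the 534 tested peaks, 4 rose at P14 and 14 fell. The 4 that rose are 0.749% of them, against 0.105% of all 96773 tested peaks, and 3 of them lie in Shank3 and Shank2. The 14 that fell are 2.62%, against 2.43% of all peaks, so this share was near the background. Of these, 10 lie in Dlgap1, Dlgap4, Nrxn3, Grik1, Gabrb1, Gabrb2 and Gabrr3. The P14 and P1 libraries did not overlap in any of the 18, which is no added support, since the same reads made the calls. Over the tested peaks, 46 (8.61%) had all P14 libraries above all P1 libraries, against 4.78% of all peaks, and 42 (7.87%) had the reverse, against 7.11%. The median log2 change was 0.07, against -0.01 over all peaks, and 57.1% of the peaks lay above 0, against 49.3%. These calls leaned on single libraries: without P14 replicate 1 none of the 18 passed, though all kept their sign, and no peak of the whole table passed either. Of the 4 that rose, those still called numbered 1 without P1 replicate 1, 0 without P1 replicate 2, 0 without P1 replicate 3, 2 without P14 replicate 2 and 2 without P14 replicate 3. Of the 14 that fell, the numbers were 3, 7, 4, 7 and 10 in the same order of libraries. DESeq2 called 3 of the 4 and 12 of the 14, limma-voom 1 and 11, and scaling to reads between peaks left 4 and 3.

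**Figure D1:**
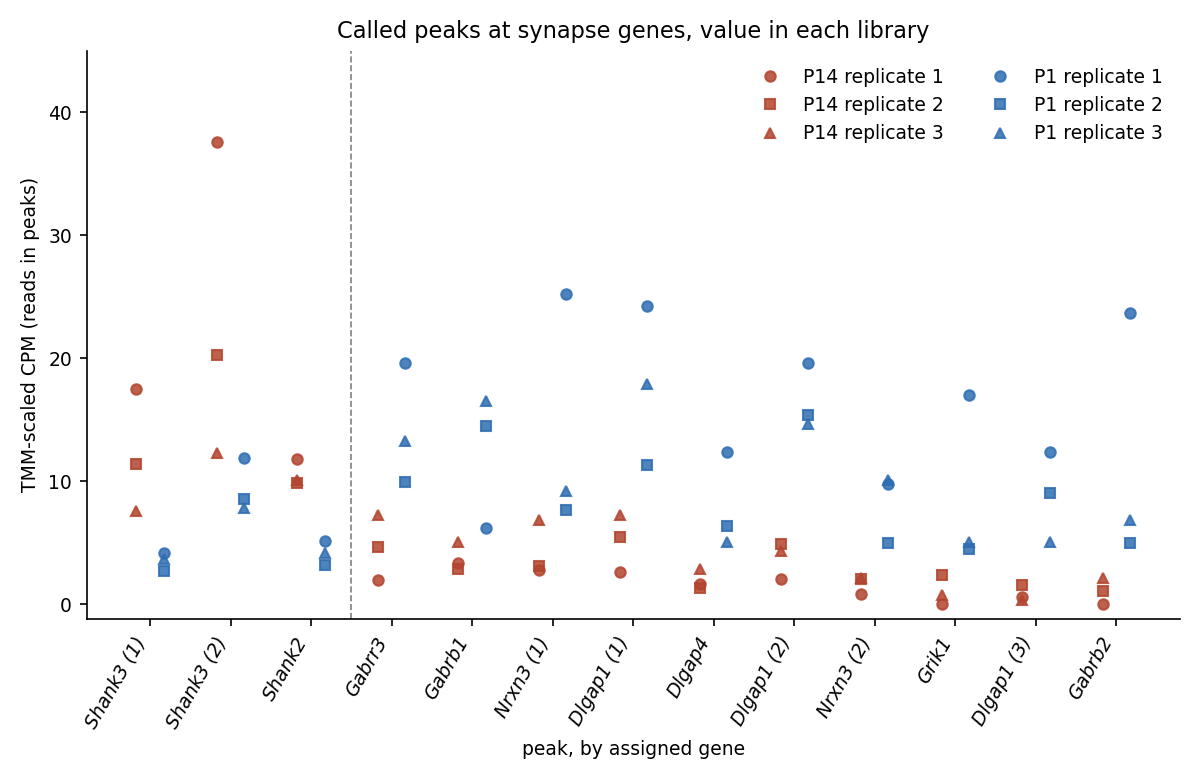
TMM-scaled CPM over reads in peaks of 13 of the called peaks in every library, P14 in red and P1 in blue; numbers in brackets separate peaks of the same gene, counted from left to right. Left of the dashed line are 3 peaks that rose and right of it 10 that fell, and in each of the 13 the red and blue points do not overlap.

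The choice of scaling sets the balance between rises and falls. Scaled to the reads between peaks, which keeps the difference in capture between libraries, 73 of the peaks rose and 3 fell, against 7272 (7.51%) and 51 (0.0527%) of all peaks, and the median log2 change of all peaks moved to 1.18. With no scaling factor, 2 rose and 5 fell. Fitted together with the regions between peaks, none of the 534 was called by edgeR's quasi-likelihood test, and neither did any of the 209063 regions (0%). At an unadjusted p under 0.05 that fit had 181 of the 534 higher (33.9%, against 12.7% of all regions) and 23 lower (4.31%, against 10.3%), and DESeq2 called 3 higher and 0 lower. The 534 are all peaks, whereas the regions include the stretches between peaks, and this fit keeps the difference in capture between libraries. These shares therefore do not compare these genes with other peaks, and the share over all peaks in this fit was not counted.

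The Shank proteins are master scaffolds of the postsynaptic density. Of their 46 tested peaks 3 rose (6.52%, against 0.105% of all peaks) and 0 fell (against 2.43%). In Shank3 (ENSMUSG00000022623), the peak chr15:89556953-89558524, 2.52 kb from an end of the gene, had 17.5, 11.4 and 7.59 CPM in the P14 libraries and 4.12, 2.71 and 3.67 CPM in the P1 libraries. All 3 P14 libraries were above every P1 library, with replicate 1 highest. The rise was 3.59-fold (log2 1.84, SE 0.40, adjusted p = 0.0265). A second Shank3 peak, chr15:89547472-89549877, had 37.6, 20.2 and 12.3 CPM at P14 and 11.8, 8.58 and 7.8 CPM at P1. Its P14 replicate 3 lay just above P1 replicate 1, and the rise was 2.58-fold (log2 1.37, SE 0.35, adjusted p = 0.0433). Shank3 links glutamate receptors to actin. Leaving out P14 replicate 1 gave log2 changes of 1.47 and 0.83.

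In Shank2 (ENSMUSG00000037541), the peak chr7:144396164-144397060 had 11.8, 9.86 and 10.1 CPM at P14 and 5.15, 3.16 and 4.13 CPM at P1. The P14 libraries lay close together and well above those of P1. The rise was 2.58-fold (log2 1.37, SE 0.36, adjusted p = 0.0484), and the log2 change was 1.29 without P14 replicate 1. The call was lost whichever library was left out (adjusted p = 0.0599 to 0.303), with DESeq2 (adjusted p = 0.103), with limma-voom (adjusted p = 0.204) and with named regions only (adjusted p = 0.0501). The table names this peak also for Gm14372, and it cannot be assigned to either gene. The Shank2 peak with the highest level, chr7:144408858-144413323, averaged 56.7 ± 10.1 CPM at P14 and 51.7 ± 11.7 CPM at P1 (SD, n = 3 each), with overlapping libraries. Shank2 held 31 of the family's 49 peaks, and the median of the family's tested peaks was 0.04.

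The Dlgap proteins bridge the PSD-95 family to the Shanks. Of their 121 tested peaks 4 fell (3.31%, against 2.43% of all peaks, so near the background) and 0 rose. Dlgap1 (ENSMUSG00000003279) held 3 of the 4. Its peak chr17:70801809-70802716 had 2.09, 4.93 and 4.34 CPM in the P14 libraries and 19.6, 15.4 and 14.7 CPM in the P1 libraries. The lowest P1 library was well above the highest P14 library, and the peak was 4.61-fold lower at P14 (log2 -2.20, SE 0.36, adjusted p = 0.0243). The peak chr17:70101826-70102559 had 0.556, 1.56 and 0.361 CPM at P14 and 12.4, 9.03 and 5.05 CPM at P1, a fall of 10.3-fold (log2 -3.37, SE 0.60, adjusted p = 0.0243). These P14 values are 4, 6 and 1 reads, so the size of the fold is poorly known. The peak chr17:70753549-70754691, which the table also gives to AC079441NA1, had 2.64, 5.45 and 7.23 CPM at P14 and 24.2, 11.3 and 17.9 CPM at P1 (log2 -1.90, SE 0.37, adjusted p = 0.0243). Without P14 replicate 1 the 3 log2 changes were -1.79, -3.0 and -1.47, and without P14 replicate 2 that of chr17:70101826-70102559 was -4.05.

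Across Dlgap1 as a whole, 18 of 24 tested peaks lay below 0, and its summed peaks stood at log2 -0.38 (SE 0.11, adjusted p = 0.0532) with no overlap between the ages. DESeq2 called that sum lower (adjusted p = 0.0443). Dlgap4 (ENSMUSG00000061689) had a called peak at chr2:156733589-156734292, with 1.67, 1.3 and 2.89 CPM at P14 and 12.4, 6.32 and 5.05 CPM at P1. P1 replicate 1 was the highest, and the fall was 4.14-fold (log2 -2.05, SE 0.52, adjusted p = 0.041). Its log2 change was -1.92 without P14 replicate 1 and -1.56 without P1 replicate 1. The same gene held the highest Dlgap level, a peak at chr2:156761595-156764750 that averaged 42.6 ± 5.14 CPM at P14 and 32.5 ± 1.04 CPM at P1 (SD, n = 3 each) and did not pass (log2 0.39, adjusted p = 0.867). Dlgap2 held the most peaks of the family, 55, with a median log2 change of -0.11 and none called. The family's smallest p among higher peaks was that of Dlgap3 at chr4:127233212-127234437 (log2 1.42, SE 0.38, adjusted p = 0.0524), just short of the threshold.

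The neurexins, presynaptic adhesion proteins with very long genes, had 1 peak that rose and 4 that fell among 56 tested. These are 1.79% and 7.14%, against 0.105% and 2.43% of all peaks. In Nrxn3 (ENSMUSG00000066392) the peak chr12:89714800-89715375 had 0.835, 2.08 and 2.17 CPM at P14 and 9.79, 4.97 and 10.1 CPM at P1. It was 5.2-fold lower at P14 (log2 -2.38, SE 0.53, adjusted p = 0.0277). The peak chr12:89254131-89255170 had 2.78, 3.11 and 6.87 CPM at P14 and 25.2, 7.68 and 9.18 CPM at P1 (log2 -1.80, SE 0.46, adjusted p = 0.0406). P1 replicate 1 carries much of this second fall, which had a log2 change of -1.06 without it and -1.49 without P14 replicate 1. The first peak had -1.92 without P14 replicate 1. Nrxn2, the shortest neurexin gene, held the most neurexin peaks, 30, with a median log2 change of 0.23 and none called.

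Among the neuroligins, the postsynaptic partners of neurexins, no peak of 13 passed, and the peaks of Nlgn2 and Nlgn1 differed in sign. All 4 peaks of Nlgn2 (ENSMUSG00000051790), the neuroligin of inhibitory synapses, lay above 0. Their summed reads gave 174, 107 and 92.9 CPM in the P14 libraries and 57.8, 90.8 and 69.0 CPM in the P1 libraries, with P14 replicate 1 far above the rest and P14 replicate 3 close to P1 replicate 2. In the fit of summed peaks per gene Nlgn2 rose 1.74-fold (log2 0.80, SE 0.21, adjusted p = 0.0376), the only one of the 50 genes to rise, where 0.498% of 17688 genes did. Without P14 replicate 1 the log2 change was 0.46 (adjusted p = 0.343), and it also missed the threshold without P1 replicate 1 (0.67) and without P1 replicate 3 (0.74). Its highest peak, chr11:69823848-69826349, is shared with Spem1. All 5 tested peaks of Nlgn1, which sits at excitatory synapses, lay below 0, with the smallest p at chr3:26112371-26114038 (log2 -1.05, SE 0.41, adjusted p = 0.327). That peak stood at 0.08 when scaled to reads between peaks.

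**Figure D2:**
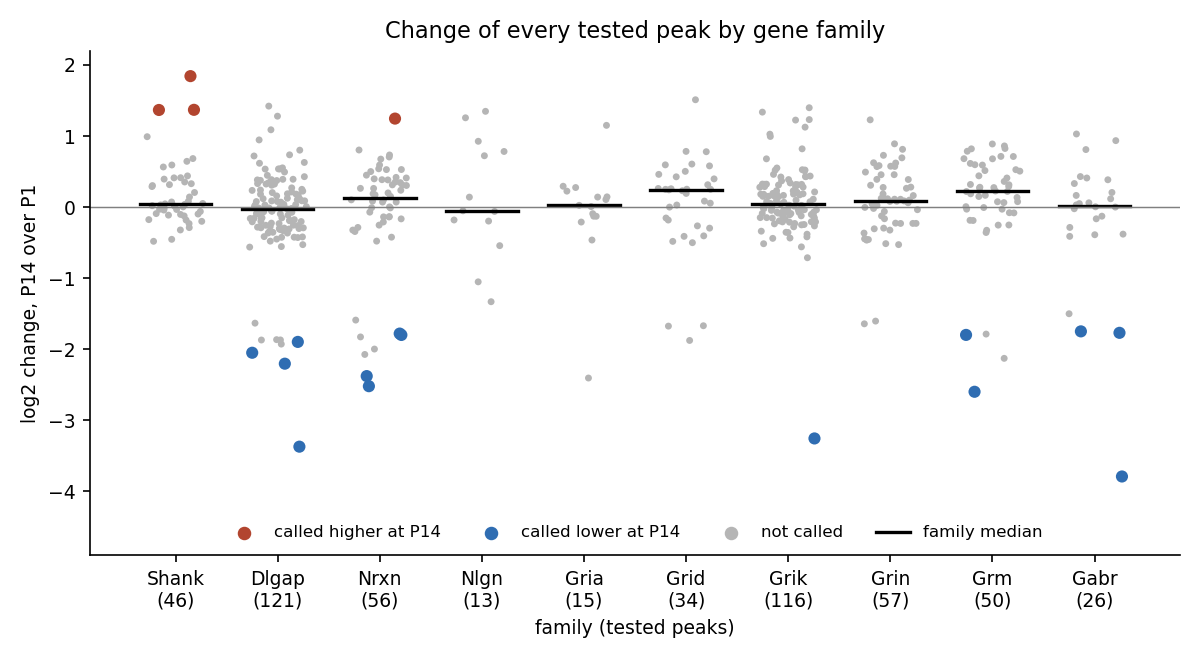
Log2 change (P14 over P1) of every tested peak by gene family, with the number of tested peaks under each name, called peaks coloured and the family median as a bar. Medians lie between -0.05 and 0.24, and 34 peaks lie below -1 with none from there to -0.75.

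The ionotropic glutamate receptors had 1 called peak among 222 tested, where 0.105% of all peaks rose and 2.43% fell. It lay in Grik1 (ENSMUSG00000022935), a kainate receptor subunit, at chr16:87913368-87914035, with 0, 2.33 and 0.723 CPM at P14 and 17, 4.52 and 5.05 CPM at P1. These are 0, 9 and 2 reads at P14 and 33, 10 and 11 reads at P1, so the size of the fall is poorly known (log2 -3.26, SE 0.79, adjusted p = 0.0353). The log2 change was -2.37 without P14 replicate 1, also -2.37 without P1 replicate 1, and -5.1 without P14 replicate 2. DESeq2 did not call the peak (adjusted p = 0.483). Its log2 change turned to 1.07 (not called) with a covariate, the log2 ratio of read density in peaks to that between peaks. The kainate receptor genes held 122 peaks, 61 of them in Grik4 and 37 in Grik3. Grik4 had a median log2 change of 0.07 over 59 tested peaks. In Grik5, an auxiliary kainate subunit, the peak chr7:25013238-25014148 had the family's smallest p among higher peaks (log2 1.40, SE 0.38, adjusted p = 0.0583). The family's highest level was next to it at chr7:25014175-25016853, at 43.6 ± 7.30 CPM at P14 and 30.8 ± 0.391 CPM at P1 (SD, n = 3 each). Its groups did not overlap, but it missed the threshold (adjusted p = 0.495).

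AMPA receptors carry most fast excitation, and 0 of 15 tested peaks passed. Gria4 had the smallest p, at chr9:4649420-4650097 (log2 -2.41, SE 0.68, adjusted p = 0.0658), and Gria1, with 13 of the 18 peaks, reached 1.15 at chr11:57189467-57190083 (SE 0.62, adjusted p = 0.827). The NMDA receptor genes had 0 of 57 called. All 6 peaks of Grin1, the obligatory subunit, lay above 0, as did all 3 of Grin3b, whose peak chr10:79975433-79979936, shared with ORF61, had the highest level of any of the 50 genes (90.3 ± 34.8 CPM at P14 and 60.8 ± 16.9 CPM at P1, SD, n = 3 each). The smallest p among higher NMDA peaks was at chr11:115267986-115270117, named for Grin2c and Fdxr and lying outside the Grin2c span (log2 0.62, SE 0.23, adjusted p = 0.253). Among the lower ones it was in Grin2b, which held 19 peaks, at chr6:135759108-135760049 (log2 -1.60, SE 0.48, adjusted p = 0.0934).

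The delta receptors bind cerebellins more than they conduct, and 0 of 34 tested peaks in this group passed. All 8 peaks of the scaffold gene Grid2ip lay above 0, reaching a log2 change of 1.51 at chr5:143379937-143380761 (SE 0.46, adjusted p = 0.0935). Grid1 held 25 peaks, the lowest p being at chr14:35462807-35463452 (log2 -1.67, SE 0.50, adjusted p = 0.0852).

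The metabotropic glutamate receptors, which act through G proteins, had 2 peaks that fell among 50 tested (4%, against 2.43% of all peaks). The family median was 0.22, and 70% of the tested peaks lay above 0. In Grm4, an inhibitory receptor of the presynaptic side and the gene with the most peaks here, 19 of 24 tested peaks were above 0, with the smallest p at chr17:27469007-27470183 (log2 0.89, SE 0.29, adjusted p = 0.15). In Grm2 all 5 were. Neither gene passed as a sum, at log2 0.34 (SE 0.11, adjusted p = 0.0996) for Grm4 and 0.59 (SE 0.21, adjusted p = 0.148) for Grm2.

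The GABA-A receptor genes had few peaks, 27 over 10 genes, and 3 of 26 tested peaks fell (11.5%, against 2.43% of all peaks). Gabrb2 (ENSMUSG00000007653), a beta subunit of the common synaptic receptor, had a single peak at chr11:42561419-42562390, with 0, 4 and 6 reads at P14 and 46, 11 and 15 reads at P1. In CPM these are 0, 1.04 and 2.17 at P14 and 23.7, 4.97 and 6.88 at P1. It was 13.8-fold lower at P14 (log2 -3.79, SE 0.77, adjusted p = 0.0243), the lowest value among the 534 peaks. The 0 of P14 replicate 1 and the 46 reads of P1 replicate 1 weigh on it, and the log2 change was -2.87 without P14 replicate 1, -2.78 without P1 replicate 1 and -4.79 without P14 replicate 3. DESeq2 did not call this peak (adjusted p = 0.241). With the log2 ratio of read density in peaks to that between peaks as a covariate it turned to 2.19 and was not called. With its single peak, Gabrb2 was also the only one of the 50 genes to fall as a sum (log2 -3.75, SE 0.77, adjusted p = 0.0147), where 2.35% of genes did; that call too was lost without P14 replicate 1 (log2 -2.82, adjusted p = 0.0598) and without P1 replicate 1 (log2 -2.82, adjusted p = 0.127). DESeq2 did not call it (log2 -3.47, adjusted p = 0.23).

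Gabrb1 (ENSMUSG00000029212), another beta subunit, fell at chr5:72137891-72138762, with 3.34, 2.85 and 5.06 CPM at P14 and 6.18, 14.5 and 16.5 CPM at P1 (log2 -1.77, SE 0.40, adjusted p = 0.0289). Here P1 replicate 1 was the lowest P1 library, and the log2 change was -2.06 without it and -1.67 without P14 replicate 1. Gabrr3 (ENSMUSG00000074991), a rho subunit of the kind known from retina, fell at chr16:59427422-59428299, with 1.95, 4.67 and 7.23 CPM at P14 and 19.6, 9.94 and 13.3 CPM at P1 (log2 -1.75, SE 0.42, adjusted p = 0.0337; -1.25 without P14 replicate 1). Another of its peaks, chr16:59457449-59459378, had a positive log2 change that missed the threshold (1.03, SE 0.40, adjusted p = 0.319). Of 60 RefSeq protein-coding genes that the symbol rule takes, 10 are not analysed here.

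Below a log2 change of -1 lay 34 peaks (6.37%, against 4.77% of all peaks), while none lay between -1 and -0.75 and the next lowest peak stood at -0.71. Few of all peaks lay in that range either (0.316%), so the gap is no trait of these genes. The 34 peaks spread over 17 genes, with 6 of 24 tested in Dlgap1 and 4 of 15 tested in Nrxn3. Genes over 100 kb long held 33 of the 34, and 430 of all 566 peaks. In 24 of the 34, P1 replicate 1 was the highest P1 library. The same library was highest among the P1 libraries in 12 of the 14 that passed (85.7%), against 38.2% of all tested peaks of these genes, and P14 replicate 1 was the highest P14 library in all 4 that rose, against 42.9%. The part of either library in these results was not tested beyond leaving it out.

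Read density gave the same picture in another unit. Divided by the density of the regions between peaks in the same library, the 4 peaks that rose had medians of 16.9, 4.85 and 4.08 in the P14 libraries and 1.54, 1.26 and 1.31 in the P1 libraries, near the level between peaks at P1. The 14 that fell had medians of 2.61, 1.94 and 2.16 at P14 and 5.75, 3.56 and 3.92 at P1. The 516 peaks that were not called had medians of 9.91, 4.25 and 4.18 at P14 and 2.24, 2.71 and 2.71 at P1. These ratios describe the called peaks and support no call, since the same reads made them.

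Gene length went with the direction. By summed peaks, the 20 genes up to 100 kb had a median log2 change of 0.25 and 16 of them (80%) lay above 0, against 54.1% of 12452 genes of that length. The 30 longer genes had a median of -0.05 (-0.045), and 12 (40%) lay above 0, against 36.6% of 2042 long genes. Spearman's rho between length and log2 change was -0.567 across these 50 genes and -0.208 across 14494 genes; all points come from the same 6 libraries, short genes hold fewer peaks, and genes are not independent replicates. Without P14 replicate 1 the rho over the 50 genes was -0.417 and the medians were 0.11 and -0.05. Limits of 100 kb for length and 10 kb for position were chosen after the values were seen. In all, 10 of the 50 genes were higher at an unadjusted p under 0.05 (20%, against 5.14% of all genes) and 12 lower (24%, against 7.72%). The ages did not overlap in 7 genes with P14 above P1 (14%, against 7.1% of all genes) and in 9 with P14 below P1 (18%, against 9.32%). The shares over all genes are not matched for length or number of peaks. The 50 genes held 566 peaks, against 68634 named peaks over 18038 genes in the whole table, so their sums rest on more peaks per gene. The part of this in the higher shares, in either direction, was not tested.

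**Figure D3:**
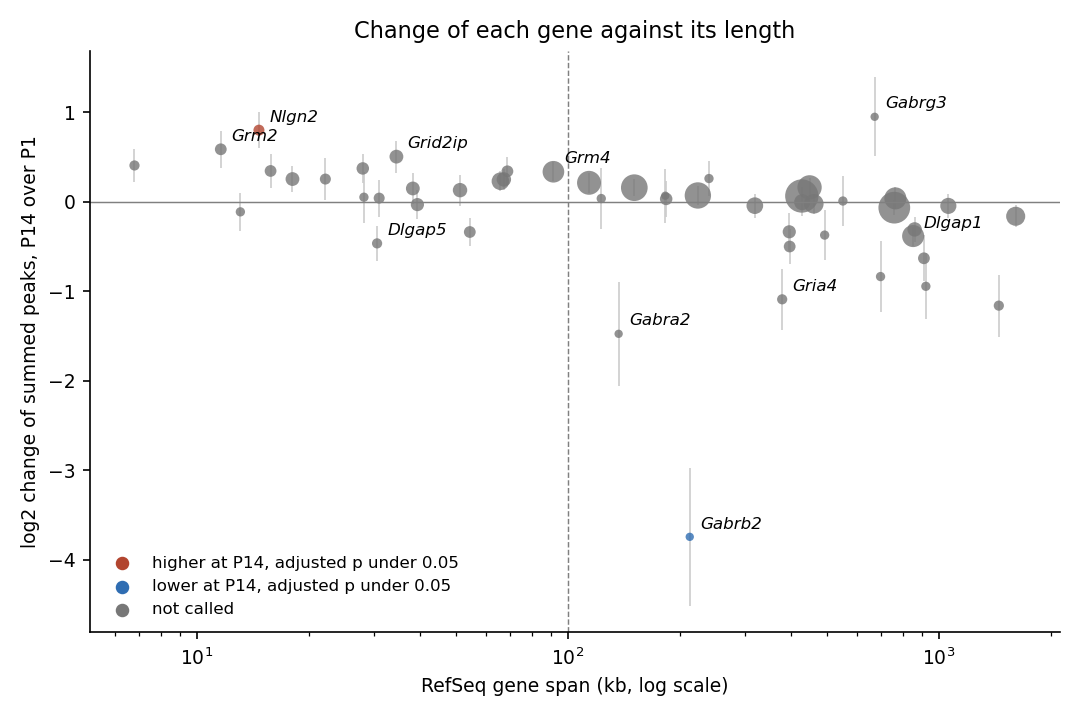
Log2 change of each gene's summed peaks (P14 over P1, bars are SE) against its RefSeq span on a log axis; point area grows with the number of peaks and the dashed line marks 100 kb. To the left of the line 16 of 20 genes lie above 0, to the right 12 of 30, with Nlgn2 and Gabrb2 called.

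Within genes, position went with the direction as well. Exons and introns were not used here, so position is the distance from a peak's middle to the nearer end of the RefSeq gene span. Of the 34 peaks higher at an unadjusted p under 0.05 (6.37% of those tested, against 2.35% of all peaks), 23 (67.6%) lay within 10 kb of an end, at a median of 5.68 kb. Of the 33 lower ones (6.18%, against 5.25%), 1 (3.03%) did, and their median distance was 124 kb. Of the other 467, 80 (17.1%) lay that near. Over all peaks named for 1 gene the shares were 61.2%, 33.3% and 41.4%. Long genes have more room far from their ends, so length and position cannot be told apart here. The higher peaks were also wider, at a median of 1225 bp against 676 bp for the lower ones. Peaks named for 1 gene in the whole table differed in the same direction, at 1089.5 bp and 725.5 bp. Without P14 replicate 1, 10 of 14 higher peaks (71.4%) and 0 of 31 lower peaks lay within 10 kb.

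**Figure D4:**
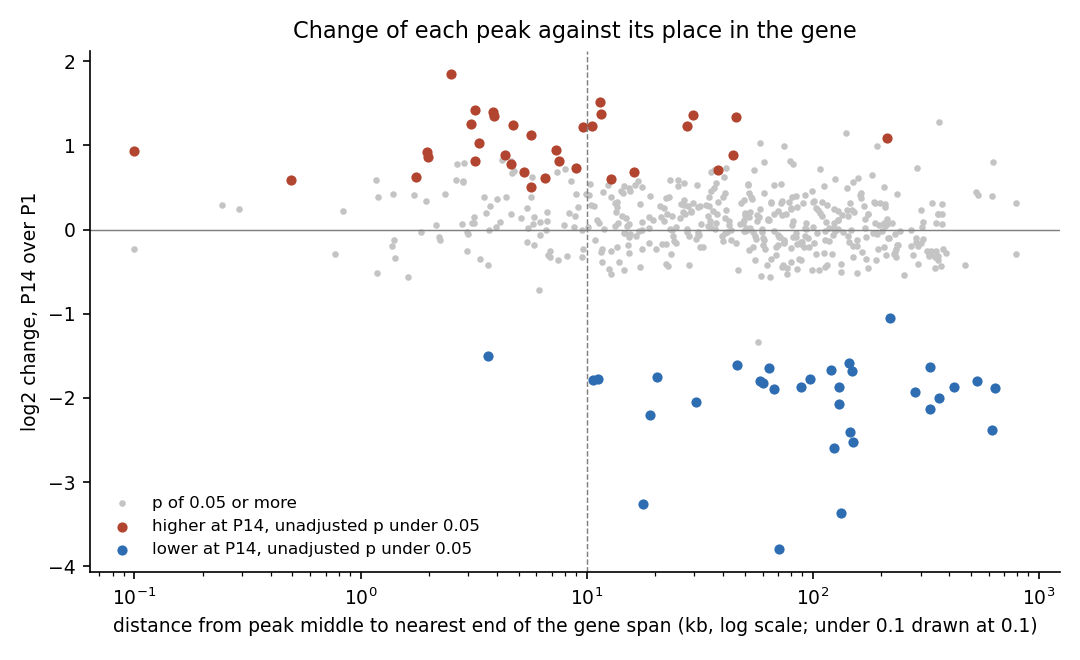
Log2 change (P14 over P1) of each tested peak against the distance from its middle to the nearer end of the gene, log axis, with distances under 0.1 kb drawn at 0.1. Red peaks, higher at an unadjusted p under 0.05, gather left of the dashed line at 10 kb (23 of 34), and 32 of 33 blue peaks, lower at that p, lie to its right.

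Together the 566 peaks took 0.598%, 0.488% and 0.504% of the reads in peaks in the P14 libraries and 0.464%, 0.453% and 0.47% in the P1 libraries. These are plain shares of counts, without the TMM scaling used above, and in them the P14 libraries were all above those of P1. Another measure, the median TMM-scaled CPM per kb over the tested peaks, overlapped between the ages. It was 8.32, 7.27 and 8.37 at P14 and 7.83, 7.68 and 8.14 at P1. Whether the shares stay apart after TMM scaling was not tested. In plain shares the gap came mostly from the shorter genes. Their 136 peaks took 0.226%, 0.159% and 0.152% at P14 and 0.133%, 0.14% and 0.134% at P1. The 430 peaks of the longer genes took 0.373%, 0.329% and 0.352% at P14 and 0.33%, 0.313% and 0.336% at P1, where the ages overlap. P14 replicate 1, the library with the highest capture, was the highest in each case. Its part in this was not tested.

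**Figure D5:**
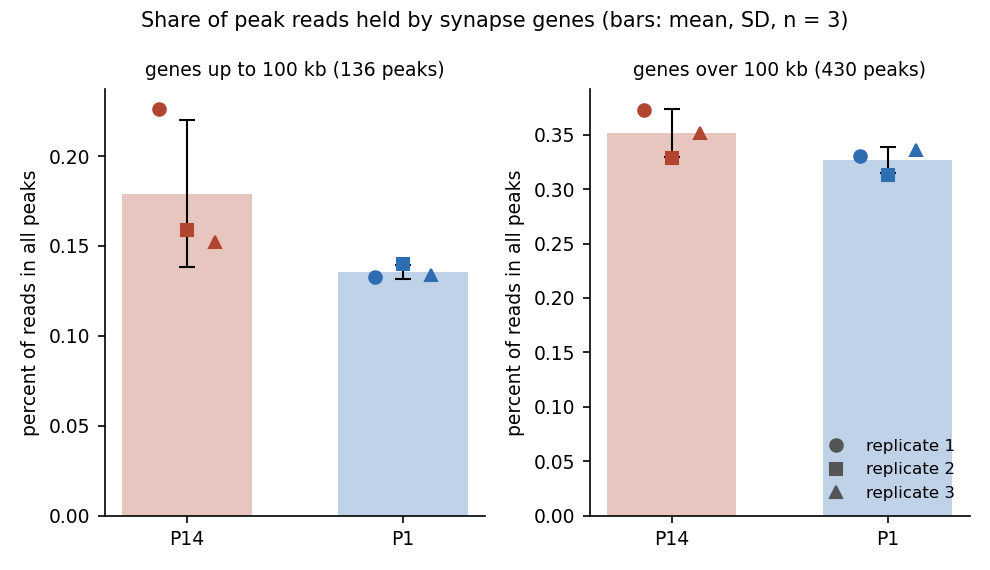
Percent of all reads in peaks that fall in peaks of these genes, by library, for genes up to 100 kb (left) and longer ones (right); bars are means and error bars SD, n = 3 each. Shares are plain counts without TMM scaling. For shorter genes all P14 libraries (0.152 to 0.226%) lie above all P1 libraries (0.133 to 0.14%), and for longer genes the ages overlap.

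A list of 71 other synapse genes (scaffolds, release machinery, transporters, glycine receptors) had tested peaks in 53 genes, and of its 447 peaks 2 rose (0.447%, against 0.105% of all peaks) and 16 fell (3.58%, against 2.43%), with a median log2 change of 0.02, against -0.01 over all peaks. The 2 that rose lay in Bsn, a scaffold of the presynaptic active zone (2.01-fold, adjusted p = 0.0455, shared with AC137678NA2), and in Pick1, which binds AMPA receptor tails (2.38-fold, adjusted p = 0.0463). The 16 that fell lay in 11 genes, including 3 peaks each in Syt1, the calcium sensor of release, and Magi1, and 1 in Syn3 that is shared with Timp3 (9.29-fold lower, adjusted p = 0.0243). None of these 18 calls held without P14 replicate 1. Of 80 peaks in 12 cardiomyocyte marker genes 0 rose and 10 fell (12.5%), all in Ryr2 and Ttn. Of 116 peaks in 7 autonomic neuron genes 0 rose and 2 fell (1.72%), below the share over all peaks, and of 41 peaks in 7 Schwann or glial genes 0 rose and 0 fell. Captured DNA shows methylation and not expression, so these lists do not measure how many cells of a type were present.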

How the data were processed

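MBD-seq reads were counted per region by the authors, and the deposited table holds those counts for 3 P14 and 3 P1 libraries, without normalization. Per the submitters' processing notes, BWA, MACS, bedtools and edgeR 3.2.4 were used with build GRCm38 (mm10); no source used here gives the peak settings or the treatment of duplicate reads. The 221524 lines held 213957 distinct regions, and 7567 repeated lines were merged. The table does not mark peaks: 101254 regions were taken as peaks from gene names, shared borders and read density, 112667 as stretches between peaks and 36 as neither. Of all regions, 17551 were sorted into peaks or stretches between them by read density alone. Starts in the table count from 0 and are given here from 1. Genes are those the table assigns; RefSeq tables gave gene spans and promoter sequences.

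Counts were tested with edgeR 4.0.16 (R 4.3.3), TMM scaling, filterByExpr with its minimum count of 10 on total library sizes, the quasi-likelihood F test for age alone over all 6 libraries, and Benjamini-Hochberg adjustment at 0.05. SE is the log2 change divided by the square root of F. It was fitted within peaks (96773 tested), over all regions (209063) and on counts summed per gene (17688). In simulated counts the fit within peaks recovered 8 of 100 changes of 2-fold and 62 of 100 of 4-fold with 6 false calls, and the fit per gene recovered 56 of 100 and 95 of 100 with 9. Recovery and the number of false calls where a library stands apart in capture, as P14 replicate 1 did, was not tested. DESeq2 1.42.0, limma 3.58.1 (voom), other scalings, no filter, regions with gene names only and leaving out libraries were alternatives. Another was a covariate, the log2 ratio of read density in peaks to that between peaks in each library. Leaving out both replicates 1 in the fits over all regions and per gene was added after the data were seen. A median of 19 to 52.5 reads per peak of these genes in P14 libraries and 14 to 15 in P1 libraries limits the precision. Peaks named are those called, up to 15 per direction, and in each family the smallest p in each direction, the gene with the most peaks and the peak with the highest mean CPM, plus genes called as sums. Some peaks and genes that this rule takes are not reported here, though the counts include them. The genes, lists and tests were chosen with earlier results of these data known.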

Additional observations from a re-analysis of the deposited data

How the results depend on the processing

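Calls at these genes within peaks (4 higher and 14 lower at P14) kept within 1.5 times of these counts under DESeq2, RLE size factors, no filter and named regions only. They were 0 and 0 with the log2 ratio of read density in peaks to that between peaks as a covariate. The counts were 1 and 30 with limma-voom, 2 and 5 with no scaling factor, and 73 and 3 when scaled to reads between peaks. They were 0 and 3 without both replicates 1, and 0 to 3 and 0 to 12 when 1 library was left out. Over all peaks (102 and 2353) the counts were 0 and 0 with that covariate, 4197 lower with limma-voom, 1349 lower with named regions only, 700 lower with no scaling factor, 7272 and 51 scaled to reads between peaks, 40 and 284 without both replicates 1, and 0 to 74 and 0 to 1403 with 1 library left out. For the other synapse genes (2 and 16) they were 1 higher with DESeq2, 1 higher with limma-voom, 0 and 0 with the covariate, 0 and 6 with no scaling factor, 41 and 1 scaled to reads between peaks, 0 and 3 without both replicates 1, and 0 to 1 and 0 to 10 with 1 library left out. Over all regions (0 and 0) DESeq2 called 3 higher, the fit without both replicates 1 called 25 higher and 3 lower, and leaving out 1 library gave 0 to 8 higher and 0 lower, the 8 without P14 replicate 1. By summed peaks, 1 and 1 of these genes and 88 and 415 of all genes were called; the counts were 2 lower with no scaling factor, 0 and 0 (22 and 90 of all genes) without both replicates 1, and 0 to 1 and 0 to 2 (3 to 137 and 46 to 456) with 1 library left out. The cause of these shifts was not tested.

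Same-numbered libraries did not deviate together (correlations -0.067, -0.05 and 0.007). With so few reads per peak, counting noise can hide a shared deviation, so this check cannot tell whether they were paired. With a replicate block, 0 and 0 peaks of these genes, 0 and 0 of all peaks, 0 and 0 of the other synapse genes, and 0 and 0 of these genes by summed peaks passed, with 27 and 85 of all genes; fewer degrees of freedom remain in that fit.

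Signs turned in 4 cases: the Gabrb2 peak stood at 2.19 and the Grik1 peak at 1.07 with the covariate, and Nlgn1 chr3:26112371-26114038 at 0.08 and Shank2 chr7:144054515-144055153 (otherwise -0.45, not called) at 0.77 when scaled to reads between peaks. The median log2 change of these genes' peaks lay 0.07 above that of all peaks, and between -0.02 and 0.11 over the alternatives. The share of reads in peaks differed by 9.71 percentage points between the ages, and by 5.17 to 12.3 with 1 library left out. Depth limits the sizes: 5 of the 14 falls rest on fewer than 10 reads in each P14 library, and 1 of the 4 rises on fewer than 10 in each P1 library. These peaks passed the low-count filter only through the age where they were high. Their low values at the other age and their lack of overlap are thus partly set by that filter.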

Other observations

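By family, the plain share of all reads in peaks, without TMM scaling, separated the ages in 4 of 10 families. Each had every P14 library above every P1 library. How often other gene sets separate in this way was not counted. In median TMM-scaled CPM per kb, the Shank, metabotropic and NMDA receptor peaks overlapped between the ages, and the neuroligin peaks did not. For Shank this median was 8.08, 6.62 and 7.88 at P14 and 6.09, 6.97 and 7.08 at P1. The Shank genes took 0.0558%, 0.0429% and 0.0464% in the P14 libraries and 0.0373%, 0.0386% and 0.0407% in the P1 libraries. The metabotropic glutamate receptors took 0.0724%, 0.0551% and 0.053% at P14 and 0.049%, 0.0495% and 0.0467% at P1. The NMDA receptor genes (0.0849%, 0.0679% and 0.0636% at P14 and 0.0634%, 0.0583% and 0.0593% at P1) and the neuroligins (0.0207%, 0.0139% and 0.0117% at P14 and 0.0114%, 0.0108% and 0.0102% at P1) were separated by narrow margins. P14 replicate 1 was the highest library in all 4, and its part in this was not tested. The shares of the AMPA receptor genes overlapped, at 0.0105% ± 0.00011 at P14 and 0.011% ± 0.0014 at P1 (SD, n = 3 each).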
